A study of Homo sapiens with 5 samples.

Results

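The distal part of the long arm of human chromosome 19, from 52.3 to 58.9 Mb on hg19, carried 275 of the 80514 peaks that the authors deposited for SRSF9-bound RNA. These 275 are every row of chromosome 19 that starts in that 6.6 Mb interval, whatever its values. The interval itself was chosen with earlier results of these data known. The other 3914 peaks of chromosome 19 served as the comparison. One pair of rows in the interval repeated the same coordinates and was averaged, which left 274 regions in the interval and 3913 elsewhere on the chromosome. The assay was eCLIP, which sequences the RNA fragments that come down with a protein in an immunoprecipitation, and the cells were HEK 293T, a line from human embryonic kidney. There were 2 libraries from cells overexpressing SRSF9 only and 2 from cells overexpressing SRSF9 and ADAR2, so SRSF9 was overexpressed in every library. The labels name an antibody against SRSF9 and the extraction protocol names MYC-coupled beads, and no source says whether separate cultures were used for the libraries of a condition, so the spread between them may be technical. The 1 input RNA library, from cells with both proteins, has no column in the table. The second SRSF9-only library stood lowest over the whole table, with a median log2 ratio of 0.24, against 1.06 to 1.16 in the other 3.

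SRSF9 is a serine/arginine-rich splicing factor that binds exonic and intronic RNA and influences splice site choice. ADAR2 deaminates adenosine to inosine in double-stranded RNA, and the series addresses how SRSF9 represses that activity on ADAR2 targets. The distal end of 19q is known for one of the densest clusters of KRAB zinc finger genes, which arose largely by tandem duplication. Their proteins bind DNA through arrays of zinc fingers and recruit a repressor complex through the KRAB domain, and many of them silence transposable elements. The table gives no strand, gene name or read count, and gene models on hg19 were not used here. The label as a zinc finger cluster could therefore not be checked against these data, and every region is given by its hg19 position, counted from 1. Whether a peak lies in an exon, an intron or a UTR was not analysed here.

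Each value is the authors' log2 ratio of a peak in 1 library, with a denominator that the table does not name. A peak was classed by the authors as found only with ADAR2, only without it, or in both conditions (shared). Peaks lay on either side of both limits. The last one before the interval, at 52207565 to 52207693, had 2.93 and 2.52 in the libraries with ADAR2, and the first inside, at 52373041 to 52373057, had 1.65 and 2.38. At the far end a shared region at 58899500 to 58899572 was the last inside. The next peak, at 58904360 to 58904426, was found only with ADAR2 and had 1.10 and 0.845.

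SRSF9 peaks were sparser in the interval than on the rest of chromosome 19. With ADAR2 the interval held 261 peaks, which is 39.5 per Mb, with a 95% Poisson interval of 34.9 to 44.6 that covers counting error only. The rest of the chromosome, between its first and last peak, held 71.1 per Mb (68.8 to 73.4), a 1.80-fold higher density. Without ADAR2 the interval held 29 peaks, 4.39 per Mb (2.94 to 6.31), against 6.83 (6.14 to 7.57) elsewhere, 1.55-fold higher. The 2 Poisson intervals did not overlap with ADAR2 and overlapped without it. The table holds 1 peak set per condition, so no library spread stands behind these densities and no test was made. They count peaks along DNA, not along transcribed RNA, and the table has no expression values.

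The thinning was uneven from one Mb to the next. Among the 5 whole windows of 1 Mb that lie inside the interval, the window that starts at 53 Mb held 5 peaks, and that starting at 57 Mb held 17. The windows starting at 54, 55 and 56 Mb held 64, 56 and 47. The median over the 53 windows outside was 72 peaks. The sparsest windows in the interval were not the sparsest of the chromosome. The windows that start at 20, 25, 26, 27 and 29 Mb held 0 peaks, and those at 22, 23 and 24 Mb held 1, 3 and 1. All of these count in that median and in the density of the rest of the chromosome. Stretches without assembled sequence, where no peak could be mapped, were not set aside. The window just before the interval, at 51 Mb, was already sparse, with 29 peaks, against 141 in the window at 50 Mb.

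Within the interval the peaks were concentrated in a few short stretches. Of its 66 windows of 100 kb, 38 held a peak and 28 held none. The 5 fullest windows held 111 peaks, 40.5% of the interval. A pair of windows, 54600001 to 54700000 and 56100001 to 56200000, held 30 peaks each. In the first, 26 were found only with ADAR2, 2 were found only without it and 2 were shared. In the second these were 27, 1 and 2. The window from 55800001 to 55900000 held 18 peaks, and those starting at 58300001 and 55600001 held 17 and 16. These were modest numbers for the chromosome, where the fullest window held 59 peaks and 18 windows outside the interval held more than 30. The median was 4 peaks per occupied window in the interval and 9 outside.

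**Figure D1:**
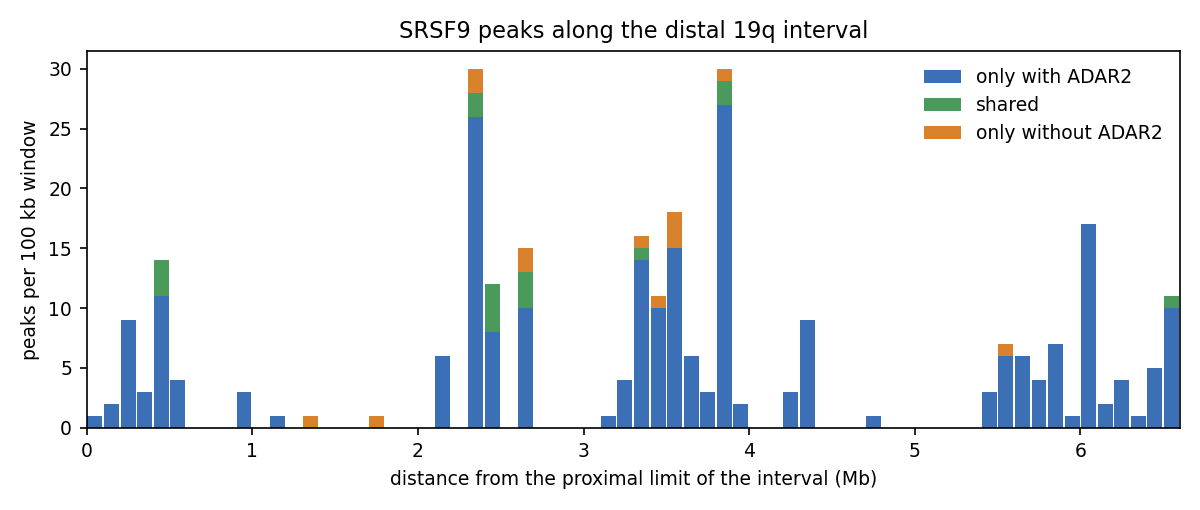
Number of SRSF9 peaks in each 100 kb window along the interval, plotted by distance from its proximal limit in Mb and stacked by class (only with ADAR2, shared, only without ADAR2). The 2 tallest bars hold 30 peaks each, and 28 of the 66 windows are empty.

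Long stretches carried no peak in either condition. The longest lay between 57079235 and 57702945, 624 kb, and the next between 54972863 and 55472640, 499.8 kb. Others ran for 418 kb from 53606631, for 411 kb from 54025104 and for 407 kb from 56671909. Counted in whole windows, 6 neighbouring windows from 57100001 to 57700000 and 4 from 55000001 to 55400000 were empty. Runs of 3 empty windows began at 52900001, 53700001, 54100001 and 56700001, and a run of 2 at 56300001. Single empty windows began at 53300001, 53500001, 54500001 and 54800001. The longest gap is preceded by 1 window with a single peak, and the window that starts at 58300001, with 17 peaks, is the fullest beyond it.

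Where peaks did occur, most had a neighbour within 1 kb, though less often than elsewhere on the chromosome. The median distance from a peak to its nearest neighbour was 808 nt in the interval and 556 nt elsewhere on the chromosome. A neighbour lay within 1 kb of 54.0% of the peaks in the interval (95% Wilson interval 48.1 to 59.8) and of 62.6% elsewhere (61.1 to 64.1). Joined where they lay within 1 kb, the 274 regions formed 176 groups. Of these, 126 were single peaks, 120 of them found only with ADAR2. At the other end, 5 groups held 5 or more peaks and together 40 peaks.

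The largest group spanned 3334 nt, from 54969529 to 54972862, and held all 3 classes. Of its 15 peaks, 10 were found only with ADAR2, 2 only in its absence and 3 in both conditions. With ADAR2 its 13 peaks had medians of 1.25 and 0.717 in the 2 libraries. The single exception to positive values with ADAR2 was a peak of 6 nt at 54969892 to 54969897, with -0.79 and -1.25. Of its 2 peaks found only without ADAR2, the one at 54972180 to 54972229 had 1.76 and 0.832 and the other, at 54972839 to 54972862, had -0.15 and -0.76. The nearest peaks present with ADAR2 lay 22 and 106 nt away from these. Both peaks found only without ADAR2 lay towards the distal end of the group.

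The second group, of 9 peaks, spanned 3134 nt from 56179876 to 56183009, and held 7 peaks found only with ADAR2, 1 found only in its absence and 1 shared region. Its peak found only without ADAR2, at 56180927 to 56180941, had -0.845 and -1.18, and lay 51 nt from the shared region at 56180993 to 56181050. The next group in size, from 55854402 to 55856672, had 5 peaks only with ADAR2, all positive in both libraries, and 1 only without, at 55856317 to 55856333. That last peak was the only one in the interval found only without ADAR2 whose second library had a value above 1, at 1.15, with 0.658 in the first. No other group held all 3 classes except the first 2 described.

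The split of the interval's peaks between conditions was close to that of the rest of the chromosome. Peaks found only with ADAR2 made up 89.4% of the interval (245 of 274, 95% Wilson interval 85.2 to 92.5) and 90.9% elsewhere (89.9 to 91.7). Those only without ADAR2 made up 4.74% (13 peaks, 2.79 to 7.95) and 4.75% (4.13 to 5.47). Shared regions made up 5.84% (16 regions, 3.63 to 9.27) and 4.40% (3.80 to 5.08). The differences, interval minus the rest, were -1.43 percentage points (95% Newcombe interval -5.73 to 1.82), -0.0089 (-2.09 to 3.25) and 1.44 (-0.874 to 4.93). All 3 intervals include 0, and they cover counting error over peaks only. At these numbers a difference of a few percentage points could not be detected. Of the 29 regions present without ADAR2, the 16 shared ones were 55.2% (37.5 to 71.6), against 48.0% (42.9 to 53.2) elsewhere. Of the 261 present with ADAR2 they were 6.13%.

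Most peaks present without ADAR2 lay in the middle of the interval, as did most peaks of all classes together. Cut into 3 equal lengths, a division made after the data were examined, the proximal part (52300001 to 54500000) held 45 peaks, the middle part (54500001 to 56700000) 160 and the distal part (56700001 to 58900000) 69. Of these, 5, 22 and 2 were present without ADAR2, which is 11.1% (95% Wilson interval 4.84 to 23.5), 13.8% (9.26 to 19.9) and 2.90% (0.799 to 9.97). The shares of the proximal and middle parts were close, and that of the distal part, on 2 peaks, was lower. The intervals of the middle and distal parts overlap slightly, and the difference was not tested. Of the 38 occupied windows of 100 kb, 12 held a peak present without ADAR2, and in the other 26 every peak was found only with ADAR2. The window at 58300001 to 58400000, in the distal part, had 17 peaks with ADAR2 and 0 without.

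The 13 peaks found only without ADAR2 were spread thinly, with at most 3 in a window of 100 kb. The window with most of them was 55800001 to 55900000, with 3, followed by 54600001 to 54700000 and 54900001 to 55000000, with 2 each. A peak present with ADAR2 lay within 1 kb of 7 of the 13 (53.8%, 95% Wilson interval 29.1 to 76.8) and within 10 kb of 10 (76.9%, 49.7 to 91.8). Elsewhere on chromosome 19 these shares were 63.4% (56.3 to 70.0) and 98.9% (96.2 to 99.7). The intervals for 10 kb do not overlap, but the one for the interval rests on 3 peaks. They were a peak at 53606615 to 53606630, which was 180299 nt from the nearest peak with ADAR2, one at 54025031 to 54025103, which was 411492 nt away, and one at 55652595 to 55652646, which was 12860 nt away. The first of these had 2.24 and 0.095 in the 2 libraries and the second 1.07 and 0.16. Both of these were the sole peak of their 100 kb window.

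Peaks of the interval had ratios like those of the rest of the chromosome with ADAR2, and lower ones without it. With ADAR2 the median log2 ratio of the 261 peaks was 1.29 in the first library (quartiles 0.782 and 1.71) and 1.06 in the second (0.475 and 1.84). The medians elsewhere were 1.21 and 1.06, so the interval differed by 0.085 and 0. Without ADAR2 the 29 peaks had medians of -0.15 and -0.47, against 0.658 and 0.068 elsewhere, a difference of -0.81 and -0.54. Over all peaks present the interval was thus lower in both libraries without ADAR2. Among the 13 peaks found only without ADAR2 it was lower in the first library, with a median of 0.073 against 0.658, and not in the second, with 0.095 against 0.076. The gap over all peaks present averaged -0.67, and among peaks above 0 in both libraries it averaged -0.13. These gaps within a condition were not tested.

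**Figure D2:**
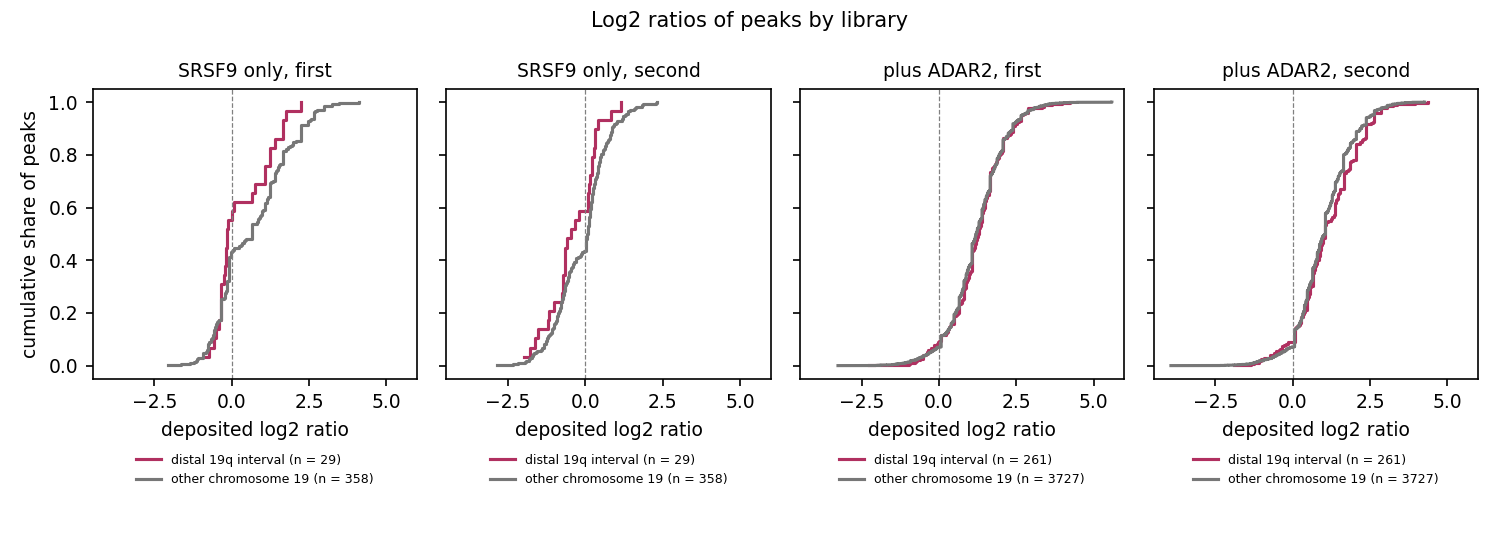
Cumulative share of peaks (vertical axis) against the deposited log2 ratio (horizontal axis) in each of the 4 libraries, for the interval and for the rest of chromosome 19. The curves lie close together in the libraries with ADAR2, while without ADAR2 the interval's curve lies to the left over most of its range.

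Most peaks of the interval present without ADAR2 had negative ratios. Of the 29, 17 were below 0 in both libraries, 58.6% (95% Wilson interval 40.7 to 74.5), against 43.6% (38.5 to 48.8) elsewhere on chromosome 19 and 25.6% (24.7 to 26.5) in the whole table. The difference from the rest of the chromosome was 15.05 percentage points (95% Newcombe interval -3.57 to 31.7), which includes 0. None of the 29 exceeded 1 in both libraries, where a count of 0 allows a share of up to 10.3% (3 counts of 29), and 7.82% (5.47 to 11.1) did so elsewhere. With ADAR2, 23 of the 261 were below 0 in both libraries, 8.81% (5.94 to 12.9), against 7.08% (6.30 to 7.95). All 23 were peaks found only with ADAR2.

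High ratios with ADAR2 took similar shares in the interval and elsewhere. With ADAR2, 112 peaks exceeded 1 in both libraries, 42.9% (95% Wilson interval 37.1 to 49.0), against 41.7% (40.1 to 43.3). Above 2 in both there were 33, 12.6% (9.15 to 17.2), against 9.15% (8.27 to 10.1), a difference of 3.49 percentage points (95% Newcombe interval -0.135 to 8.16). Both differences have intervals that include 0, and for the threshold of 1 it ran from -4.83 to 7.51 percentage points.

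The strongest peak of the interval was at 55795459 to 55795506, found only with ADAR2, with 4.24 and 4.38. Its mean of 4.31 ± 0.101 (SD, n = 2) was the second highest of all 3988 regions of chromosome 19 present with ADAR2. It was the only member above 3 in both libraries. It stood 1.00 above the next, at 54648242 to 54648261, which had 3.98 and 2.65. The third, at 58718591 to 58718644, had 2.39 and 3.97, so the libraries placed these in opposite order.

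The others among the 10 highest found only with ADAR2 had means from 2.76 to 3.02. They lay at 54695971 to 54696001, with 3.65 and 2.38, and at 57904343 to 57904371, with 2.65 and 3.38. The window that starts at 56100001 held 3 of them. One was at 56156897 to 56156909, with 2.65 and 3.23, and one at 56189490 to 56189534, with 3.39 and 2.38. The other of these was at 56152476 to 56152510, with 2.88 and 2.65. The rest were at 56664484 to 56664515, with 2.65 and 3.06, and at 54618784 to 54618821, with 2.65 and 2.87. In the first library 4 of these 10 peaks had the same value of 2.65. Ratios in the table fell on a limited set of values: the 261 peaks with ADAR2 took 120 distinct values in the first library, 19 of them at 1.07, and 103 in the second, 16 of them at 2.06. Small differences in rank among these peaks therefore do not order them.

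The lowest peaks found only with ADAR2 were at 56671903 to 56671908, 6 nt wide, with -2.25 and -1.08, at 56181816 to 56181871, with -0.96 and -1.91, and at 56185967 to 56186009, with -0.72 and -1.36. The latter 2 lay in the window that starts at 56100001, as did 3 of the 10 highest, so high and low peaks occurred in the same window.

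Between the libraries with ADAR2, the first exceeded the second in 163 of 261 peaks (62.5%), by a median of 0.17 (quartiles -0.31 and 0.64). The SD between them had a median of 0.337, against 0.334 elsewhere on the chromosome. Across the 261 peaks Spearman's rho between the libraries was 0.69 and Pearson's r was 0.75. This is a description across peaks of 1 table. In it, both libraries with ADAR2 agreed in sign at all 261 peaks of the interval, as at all 75594 of the whole table. How the peaks were selected is not stated. A filter on agreement in sign could have raised both coefficients, which was not tested. Without ADAR2 the first library exceeded the second in 25 of 29 peaks, by a median of 0.64 (0.38 and 1.06).

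**Figure D3:**
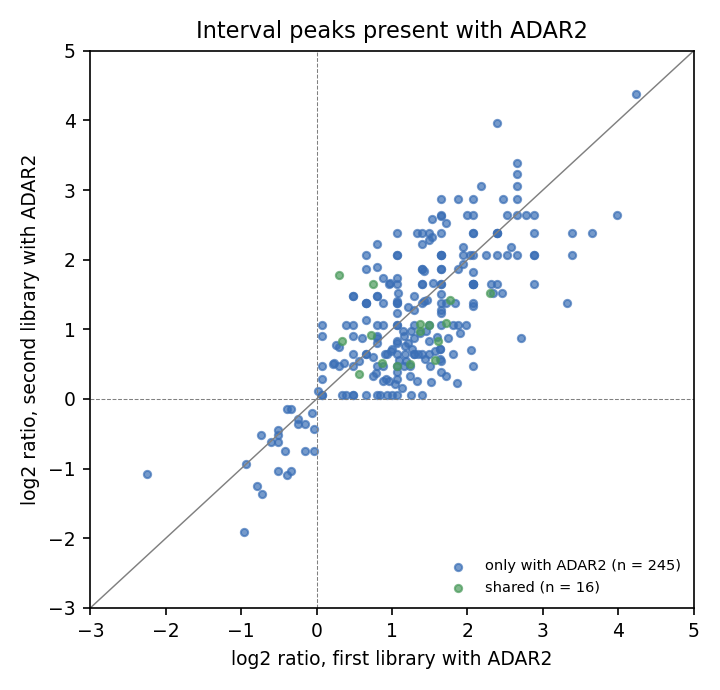
Log2 ratio of the first (horizontal) against the second (vertical) library with ADAR2 for the 261 regions of the interval present with ADAR2, coloured by class, with the line of equal values. No point lies in the quadrants of opposite sign, and the peak with 4.24 and 4.38 stands apart at the upper right.

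Among the peaks found only without ADAR2, the highest was at 54972180 to 54972229, in the largest group, with 1.76 and 0.832. Next came those at 53606615 and 55856317 described above, then 55751471 to 55751475, with 1.24 and 0.394, and 57804096 to 57804148, with 1.40 and 0.202. In 4 of these 5 the second library was the lower. The lowest were at 55897718 to 55897748, with -0.72 and -1.78, at 55897302 to 55897334, with -0.15 and -1.99, and at 56180927 to 56180941. The first 2 of these lay within 500 nt of each other and had no peak of the other condition within 1 kb.

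Peaks of the interval were about as wide as elsewhere. The median was 35 nt (quartiles 20 and 50) against 33 nt (20 and 49). By class it was 35 nt for peaks only with ADAR2, 31 nt for those only without and 53.5 nt for the shared regions, against 33, 29 and 48 nt elsewhere. The shared regions ran from 3 to 202 nt, the latter at 54711267 to 54711468. The peaks covered 10890 nt in all, 1.65 nt per kb of the interval. Across the 261 peaks with ADAR2, Spearman's rho between width and mean ratio was 0.0092, given as a description across peaks of the same libraries.

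The 16 shared regions are the only ones with values in all 4 libraries, and all 16 were above 0 in both libraries with ADAR2. That was common: 87.8% of shared regions elsewhere on chromosome 19 and 92.2% over the table were too. Without ADAR2, 11 of the 16 were below 0 in both libraries, against 46.5% elsewhere on the chromosome and 28.4% over the table. Those 11, 68.8% (95% Wilson interval 44.4 to 85.8), changed sign between conditions, against 61 of 172 shared regions elsewhere on chromosome 19, 35.5% (28.7 to 42.9), and 22.8% of the 3645 shared regions of the table. The difference from the rest of the chromosome was 33.3 percentage points, with a 95% Newcombe interval of 7.84 to 51.7 that covers counting error over regions only. With each library centred on its median over all shared regions, 2 of the 16 and 15 of the 172 changed sign, a difference of 3.78 points (-6.60 to 27.5). The larger share of sign changes thus depended on the zero point of the scale in each library. None changed sign the other way, which was also rare elsewhere on the chromosome (1.16%) and over the table (2.19%).

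**Figure D4:**
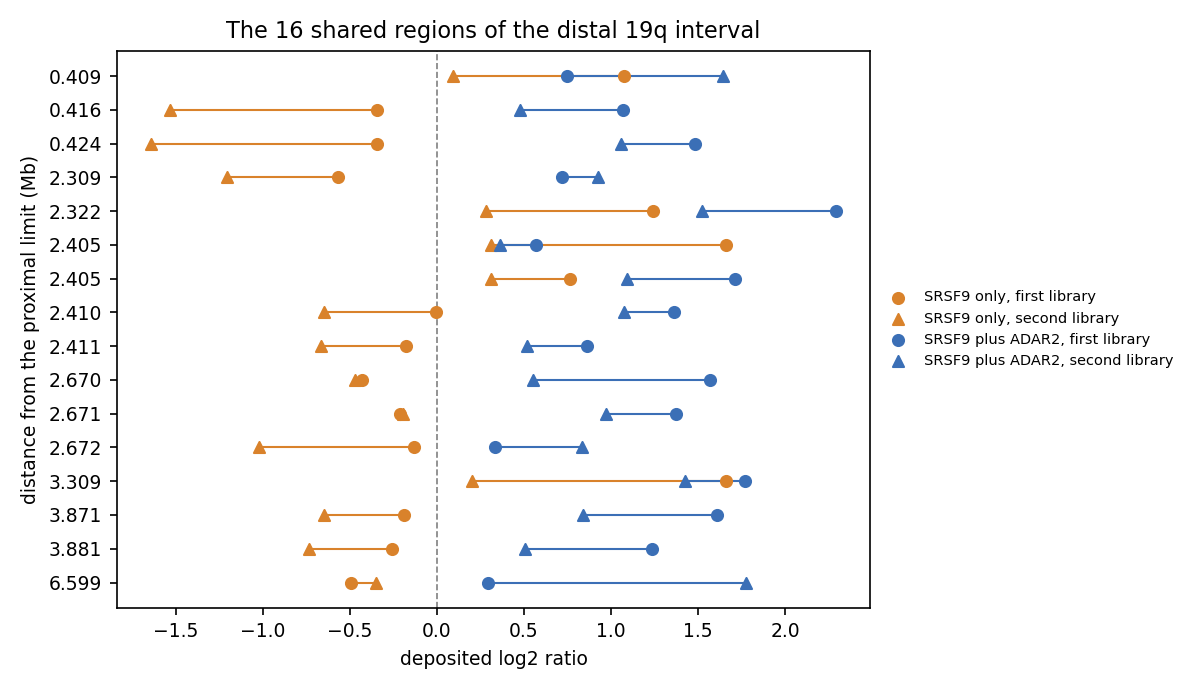
Deposited log2 ratios (horizontal axis) of the 16 shared regions in the 4 libraries, ordered by distance from the proximal limit of the interval in Mb, with a line joining the libraries of a condition. In 13 regions both libraries with ADAR2 lie to the right of both without, and in 3 the conditions overlap.

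In 13 of the 16, 81.3% (95% Wilson interval 57.0 to 93.4), neither SRSF9-only library reached the lower of the ADAR2 libraries. This was so in 55.2% (47.8 to 62.5) elsewhere on chromosome 19 and in 49.9% of all shared regions. The reverse separation was found in none, in 10.5% elsewhere on chromosome 19 and in 9.22% over all. In the other 3 the conditions overlapped. The median difference, with minus without ADAR2, was 1.37 on the log2 scale in the interval, 0.81 in the 172 regions elsewhere on the chromosome and 0.62 over all 3645. Centring the libraries lowered the median of all shared regions to 0.03 and that of the interval to 0.78, with 0.22 elsewhere on chromosome 19. The interval's regions were higher with ADAR2 in 15 of 16 cases, 93.8%, before and after centring. Elsewhere on chromosome 19 this share was 80.2% before and 55.8% after, and over all shared regions it was 73.6% and 51.1%. By library the shared regions had medians of -0.18 and -0.56 in the SRSF9-only libraries and 1.30 and 0.946 in those with ADAR2, where the rest of chromosome 19 had 0.29, 0.03, 1.13 and 0.81. The interval lay lower than the rest in both libraries without ADAR2, by 0.47 and 0.59, and higher in both with it, by 0.16 and 0.13.

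By limma with Benjamini-Hochberg adjustment over all 3645 shared regions, 5 of the 16 rose with ADAR2 and 0 fell, at n = 2 libraries per condition. That is 31.3% of the 16, beside 20.9% of the 172 regions elsewhere on chromosome 19, and over all regions 18.5% were called higher and 2.41% lower. Unadjusted, 10 of the 16 had a p under 0.05, all of them higher with ADAR2, which is 62.5%, beside 36.6% in either direction elsewhere on chromosome 19 and 33.4% over all regions. After centring 1 of the 16 was called, where 12.6% were called higher and 10.9% lower over all regions. Without any 1 of the 4 libraries 0 of the 16 passed by limma, with 3 to 12 at an unadjusted p under 0.05. In those fits limma called 0 of all 3645 regions without either SRSF9-only library, and 81 and 221 without the first and the second library with ADAR2, with 562 to 1405 at an unadjusted p under 0.05. limma gave every region the same SE of 0.59 before centring, so those p-values do not use a region's own spread.

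The region that rose most was 52724294 to 52724339. Its ratios were -0.34 and -1.64 in the SRSF9-only libraries and 1.48 and 1.06 in those with ADAR2. The libraries of the conditions did not overlap, and the difference was 2.26 ± 0.59 (SE, limma adjusted p = 0.00209). It was also the one that passed after centring, with a difference of 1.67 and a limma adjusted p of 0.00688. In the fits on 3 libraries its difference lay between 1.61 and 2.91 and the limma adjusted p between 0.0522 and 0.187.

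About 8 kb away, the region of 3 nt at 52716208 to 52716210 had -0.34 and -1.54 in the SRSF9-only libraries and 1.07 and 0.475 in those with ADAR2. Its difference was 1.71 (limma adjusted p = 0.0246). Both regions had the same value of -0.342 in the first SRSF9-only library. There the 29 peaks present without ADAR2 took 22 distinct values, and 4 of them had -0.342. A further shared region of the same window, 52709256 to 52709271, had 1.07 and 0.095 in the SRSF9-only libraries and 0.747 and 1.65 in those with ADAR2. The conditions overlapped there, and the difference of 0.61 did not pass (limma adjusted p = 0.494). Neighbouring shared regions of this window thus differed in whether the conditions were separated.

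The other 3 that rose lay in the middle of the interval. At 54609240 to 54609302 the ratios were -0.57 and -1.20 in the SRSF9-only libraries and 0.721 and 0.923 in those with ADAR2, a difference of 1.71 (limma adjusted p = 0.0251). At 54710207 to 54710329 they were -0.005 and -0.65, and 1.36 and 1.07, a difference of 1.54 (limma adjusted p = 0.0453). At 56170612 to 56170636 they were -0.19 and -0.65, and 1.61 and 0.838, a difference of 1.64 (limma adjusted p = 0.0322). The conditions were separated in each of these 3. After centring these 3 and the one at 52716208 had limma adjusted p of 0.0526 to 0.0883.

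None of the 3 shared regions of the largest group passed the test once rows of identical coordinates were averaged. At 54969529 to 54969644 the ratios were -0.43 and -0.47 in the SRSF9-only libraries and 1.57 and 0.552 in those with ADAR2, the first being the mean of 2 rows with -0.21 and -0.65 (difference 1.51, limma adjusted p = 0.0509). With the rows kept apart 6 rows of the interval were called, and the one with -0.65 was among them (limma adjusted p = 0.0340), while the one with -0.21 was not (limma adjusted p = 0.0704). At 54971357 to 54971475 they were -0.21 and -0.19, and 1.37 and 0.969 (difference 1.37, limma adjusted p = 0.0798). At 54971959 to 54971975 they were -0.13 and -1.02, and 0.332 and 0.836 (difference 1.16, limma adjusted p = 0.149). All 3 were below 0 in both libraries without ADAR2 and above 0 in both with it. They lie in 1 group of neighbouring peaks and are not independent.

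A cluster of 4 shared regions lay in the window that starts at 54700001, and its members differed among themselves. The region at 54710207 described above and that at 54711267 to 54711468 were below 0 without ADAR2, the latter with -0.18 and -0.67, and had 0.865 and 0.518 with it. The pair at 54705361 to 54705375 and 54705399 to 54705478, 23 nt apart, was above 0 in every library. The first of the pair had 1.66 and 0.308 in the SRSF9-only libraries and 0.567 and 0.365 in those with ADAR2, and was the only one of the 16 with a lower mean with ADAR2, by -0.52 (limma adjusted p = 0.572). The second had 0.765 and 0.308 in the SRSF9-only libraries and 1.71 and 1.09 in those with ADAR2, a difference of 0.86 (limma adjusted p = 0.303). The pair shared its value of 0.308 in the second SRSF9-only library, so that value may not be a separate measurement for each.

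The shared region with the highest mean over all libraries was 54621762 to 54621781, with 1.24 and 0.285 in the SRSF9-only libraries and 2.29 and 1.52 in those with ADAR2 (difference 1.14, limma adjusted p = 0.156). Next was 55609281 to 55609329, with 1.66 and 0.202, and 1.77 and 1.42. Its difference of 0.67 did not pass (limma adjusted p = 0.450) and was -0.06 without the second SRSF9-only library. Of the remaining 2, 56180993 to 56181050 had -0.26 and -0.74, and 1.23 and 0.504 (difference 1.37, limma adjusted p = 0.0805). The one at the far limit, 58899500 to 58899572, had -0.49 and -0.35, and 0.296 and 1.77 (difference 1.46, limma adjusted p = 0.0612), with the widest spread between libraries with ADAR2 among the 16, an SD of 1.05. Both were separated between conditions, and neither passed.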

How the data were processed

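The deposited table of the series was used, which has no header. Its log2 ratios and peak classes were made by the authors; per the submitters' processing notes the build is hg19, and for the aligner, peak caller, thresholds, replicates and multiply mapped reads the procedure was not given in the sources used here. Columns were assigned to conditions from the class column, since a pair of 0 values stands where a peak is absent. Within a condition the libraries are called first and second in file order. Read depth is unknown, so single values carry no interval.

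Rows of identical coordinates were averaged. Shared regions of the whole table were fitted with limma 3.58.1 in R 4.3.3 on the log2 values, with no replicate block, and Benjamini-Hochberg adjustment over all of them at 0.05. The script was tested on simulated data. Shares carry Wilson, differences of shares Newcombe and counts per Mb Poisson intervals, all at 95%, computed with scipy 1.17.1; these treat neighbouring peaks as independent. For shared regions, the gap in median between the interval and the rest of chromosome 19 was compared between conditions by an exact permutation test over the 4 libraries. No test across peaks was made.

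Peaks named were the 10 highest only with ADAR2, the 5 highest only without and shared, the 3 lowest of each class, every shared region past limma, the 5 windows with most peaks, the 3 with most peaks only without ADAR2 and all empty windows. All 16 shared regions were given in addition. The interval, comparisons and lists were chosen with earlier results of these data known. Gene lists were not used, since gene models on hg19 were not used here. Alternatives were centring, leaving out a library, sign and ratio thresholds, merging within 1 kb, other limits and the long arm alone as comparison.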

Additional observations from a re-analysis of the deposited data

How the results depend on the processing

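Read depth and gene content are not in the table, and the 29 regions present without ADAR2 are few. No paired analysis was possible because the columns carry no replicate number. The number of shared regions called higher with ADAR2 was 5 with all libraries, 1 after centring, 0 among regions above 0 in every library (0 at an unadjusted p under 0.05), and 0 in every fit without 1 library. It was 6 with rows of identical coordinates kept apart. The 5 regions called with all libraries were each below 0 in both SRSF9-only libraries. The filter on values above 0 thus removed them before the fit, and its 0 says nothing about them. With 1 library left out, the lone library of a condition is assumed to vary like the other condition. Among the 5 regions above 0 in every library, which exclude every region that changed sign, the median difference was 0.67. With all shared regions of the interval it lay between 1.12 and 1.57 in the fits on 3 libraries. Over those fits the region at 54705361 lay between -1.19 and 0.16, turning positive without the first SRSF9-only library, and that at 55609281 between -0.0615 and 1.39, turning negative without the second; the cause was not tested. With a ratio above 1 required in both libraries, peaks only with ADAR2 made up 95.5% and peaks only without it 0%, and the interval held 17.0 peaks per Mb with ADAR2 and 0 without. Merging within 1 kb left 25.9 per Mb with ADAR2. The share of sign changes fell from 68.8% to 12.5% after centring, and its difference from the rest of chromosome 19 from 33.3 to 3.78 points. The alternatives for that share and the division into 3 parts were chosen after seeing the data. The median gap without ADAR2 was -0.13 among peaks above 0, against -0.67, and ranged from -0.81 to -0.54 over single libraries. With ADAR2 it ranged from 0 to 0.085. Over the summary values of the interval, 75 alternative values stayed within the error or range set for the reported value and 15 did not. Some of the 75 could not move, so this tally does not measure robustness. On chromosome 19 the libraries of a condition agreed in sign at every peak. Leaving out a library therefore could not change the share of sign changes.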
